A study of Danio rerio with 6 samples.

Results

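The genes described here are the positive limb of the zebrafish circadian clock. They comprise bmal1a, bmal1b and bmal2, clocka and clockb, npas2, and the retinoid-related orphan receptor genes roraa, rorab, rorca and rorcb. All 10 symbols had an entry in the deposited count table, and a numeric suffix marked further entries of the same symbol, which gave 18 entries of 53709 in all. The genes were selected on their names as a family. They were proposed with the differences of clock genes between ZnO and control libraries already known. The contrast between the groups is therefore given as a description, and nothing is supported with it.

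Messenger RNA came from the caudal fin blastema, the mass of proliferating cells that rebuilds an amputated fin, of male zebrafish (Danio rerio) at 4 days after amputation. Controls were kept in distilled water and the ZnO group in water with 2 mg/L of zinc oxide nanoparticles made with propolis extract (Pro-ZnO), each fish in its own beaker, and there were 3 libraries per group. The labels name no strain, transgene or age. They give 5 fish per group in triplicate without tying fish to libraries. Whether the libraries come from separate fish, and what the spread between them measures, is therefore not known. No group received propolis or dissolved zinc alone, so the parts of the preparation cannot be told apart. Stock fish were kept at 14 hours of light and 10 hours of dark, and the labels give neither the lighting over the beakers nor the hour at which fins were collected.

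In vertebrate cells a BMAL protein pairs with CLOCK or its relative NPAS2, and the pair binds E-box elements and switches on the per and cry genes, whose products then repress the pair. A second loop links in the nuclear receptors: ROR proteins activate, and Rev-erb proteins (nr1d genes) repress, genes with a shared response element, of which mammalian Bmal1 is the best known. Transcripts of bmal1 and of the per and nr1d1 genes therefore peak at different times of day. Zebrafish tissues, fins included, hold clocks that respond to light directly.

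Libraries held 26624174 to 31712994 counts, and 1 count was worth 0.0316 to 0.0383 CPM (reads of an entry for each 1000000 in the library, after TMM scaling). Blastema markers were present in every library, with 11 of 11 symbols having an entry, none at 0 throughout, and a summed level of 9540 to 11200 CPM in controls and 8750 to 12200 in ZnO. Most of that sum came from and1, and2 and fn1b. Of the 14 blastema entries, 5 had non-overlapping groups with ZnO lower and 2 with ZnO higher, beside 11.2% and 11.3% of all tested entries. edgeR called 0 of the 14, and DESeq2 called 1 (tncb, lower). ZnO 2 and ZnO 3 stood apart from the other 4 libraries at some of the clock repressor genes. The Rev-erb gene nr1d1 was at 60.4, 39.8 and 17.5 CPM in control 1, 2 and 3, at 18.7 in ZnO 1, and at 0.268 and 0.468 in ZnO 2 and ZnO 3. ZnO 1 lay beside control 3 at this gene. Neutrophil markers summed to 314 to 395 CPM in controls and 51.4 to 130 in ZnO, with all 9 entries negative in log2 fold change. edgeR called 3 of the 9 and DESeq2 6, all lower. Over all entries edgeR called 0.428% in either direction and DESeq2 3.10% lower. Erythrocyte marker sums overlapped, at 22.3 to 135 CPM in controls and 132 to 362 in ZnO. All 5 of their entries were positive, beside 52.0% of all tested entries. edgeR called 0 of the 5, and DESeq2 called 3 higher, beside 1.70%. In bulk tissue, fewer cells of a type and less RNA per cell cannot be told apart.

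**Figure D1:**
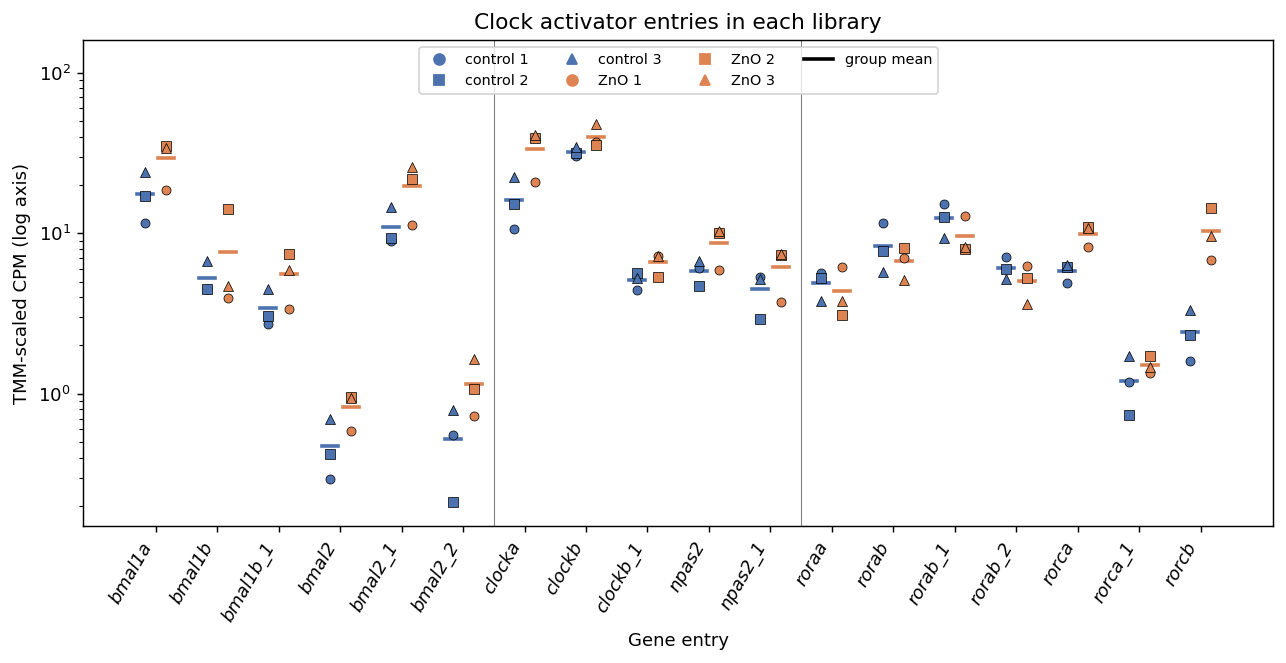
Level of each clock activator entry in each library (TMM-scaled CPM, log axis). Points are libraries, marked by number, and short lines are group means; grey lines separate bmal, clock and npas2, and ror entries. The rorcb points of the ZnO group, 6.79 to 14.4 CPM, lie above those of the control group, 1.61 to 3.32.

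The widest separation between the groups was at the ror genes, and it was not shared by all of them. rorcb, which encodes one of the ROR nuclear receptors, stood at 1.61, 2.32 and 3.32 CPM in control 1, 2 and 3 and at 6.79, 14.4 and 9.62 CPM in ZnO 1, 2 and 3. Every ZnO library was above every control, and the lowest ZnO library was at 2.05 times the highest control. The group means were 2.42 ± 0.859 and 10.3 ± 3.85 CPM (SD, n = 3 each), a ratio of 4.25, while the highest control was 2.06 times the lowest. The log2 fold change was 2.08 ± 0.35 (SE). Its paralogue rorca stood at 4.89, 6.13 and 6.36 CPM in controls and at 8.15, 10.9 and 10.7 in ZnO. The groups again did not overlap, and the means of 5.79 ± 0.787 and 9.91 ± 1.53 CPM (SD, n = 3 each) had a ratio of 1.71 (log2 fold change 0.77 ± 0.18, SE). The second rorca entry, rorca_1, held 10.8% to 21.2% of the counts of that symbol, and its levels overlapped at 0.740 to 1.71 CPM in controls and 1.35 to 1.72 in ZnO. How the counting divided reads among near-identical copies is not known here, so the levels of single ror entries are uncertain on that account.

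The alpha type receptors had the opposite sign and smaller values. roraa was at 5.65, 5.28 and 3.79 CPM in the control and 6.17, 3.10 and 3.81 in the ZnO libraries, so that the highest and the lowest of all libraries were both ZnO libraries. Its log2 fold change of -0.17 ± 0.28 (SE) became 0.01 without ZnO 2. The rorab entries had log2 fold changes of -0.31 ± 0.28, -0.36 ± 0.24 and -0.27 ± 0.24 (SE) for rorab, rorab_1 and rorab_2. Summed over these entries, rorab stood at 33.8, 26.5 and 20.2 CPM in the control and 26.1, 21.3 and 16.9 in the ZnO libraries, with overlapping groups. The share of roraa in the counts of roraa and rorab was 14.3% to 16.6% in controls and 12.7% to 19.1% in ZnO. Control 1 was the highest and control 3 the lowest control at all 4 rora entries, where control 1 was highest at 33.4% and control 3 lowest at 31.7% of all tested entries. At the 3 rorca and rorcb entries control 3 was instead the highest control, ZnO 1 the lowest ZnO library and ZnO 2 the highest. Over all tested entries these positions were held at 31.2%, 33.7% and 37.0%.

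T cell markers (trac, lck, zap70, cd4-1 and cd8a) were among the markers of other cell types that a bulk blastema sample can hold. All 5 had entries and none was at 0 throughout. Of their 7 entries 6 had a negative log2 fold change, with a median of -0.52, and their summed level was 61.0 to 76.7 CPM in controls and 39.3 to 67.9 in ZnO. Over all tested entries 52.0% were positive. edgeR and DESeq2 called 0 of the 7, and groups did not overlap at 1 (zap70, ZnO lower), beside 11.2% of all tested entries. Macrophage markers were likewise negative, at 5 of 5 entries with a median of -0.43. Neither tool called any of the 5, and their groups all overlapped. Keratinocyte markers were positive at 7 of 11 entries, with a median of 0.28. edgeR and DESeq2 called 0 of the 11, and 3 had non-overlapping groups with ZnO higher, beside 11.3% of all tested entries. Their summed level was 43100 to 60000 CPM in controls and 57400 to 74600 in ZnO. The part of cell composition in the values of the ror genes was not tested.

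Among the clock and npas2 entries, clocka had the widest difference. It stood at 10.6, 15.2 and 22.4 CPM in control 1, 2 and 3 and at 20.7, 39.0 and 40.8 CPM in ZnO 1, 2 and 3. ZnO 1 lay below control 3, so the groups overlapped, and ZnO 2 and ZnO 3 lay above all other libraries. The means were 16.1 ± 5.94 and 33.5 ± 11.2 CPM (SD, n = 3 each) with a ratio of 2.08, about the ratio of 2.11 between the highest and the lowest control. clockb, the paralogue, was steadier: 30.1, 31.8 and 34.6 CPM in the control and 36.8, 35.2 and 48.1 in the ZnO libraries. Its groups did not overlap, although the gap between control 3 and ZnO 2 was small beside the spread within ZnO, and the ratio of means was 1.24 (log2 fold change 0.32 ± 0.14, SE). The smaller entry clockb_1, with 12.7% to 16.4% of the symbol's counts, overlapped at 4.40 to 5.67 CPM in controls and 5.36 to 7.25 in ZnO. Of the counts of both clock genes together, clocka held 23.5%, 28.8% and 36.0% in control 1, 2 and 3, and 31.9%, 49.0% and 42.4% in ZnO 1, 2 and 3. That share therefore overlapped between the groups, with ZnO 1 below control 3.

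npas2, whose product can stand in for CLOCK in mammals, was split over a pair of entries with similar shares. Their sum was 11.4, 7.61 and 11.9 CPM in the control and 9.64, 17.3 and 17.7 in the ZnO libraries. ZnO 1 lay within the range of the controls and the other ZnO libraries above it. The log2 fold changes were 0.58 ± 0.25 for npas2 and 0.46 ± 0.32 for npas2_1 (SE).

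bmal1a and the main entry of bmal2 had the same arrangement of libraries apart from the order of ZnO 2 and ZnO 3. bmal1a, one of the zebrafish copies of the gene for the obligate partner of CLOCK, was at 11.5, 17.1 and 23.9 CPM in the control and 18.7, 35.1 and 33.8 in the ZnO libraries. ZnO 1 lay between control 2 and control 3, and ZnO 2 and ZnO 3 were above every control. Its means were 17.5 ± 6.18 and 29.2 ± 9.15 CPM (SD, n = 3 each), a ratio of 1.67 where the highest control was 2.07 times the lowest. The main entry of bmal2, bmal2_1, was at 8.97, 9.30 and 14.6 CPM in the control and 11.3, 21.6 and 26.0 in the ZnO libraries. It too had ZnO 1 among the controls. The share of bmal1a in the counts of bmal1a and bmal2 stayed between 54.0% and 63.2% over all libraries, with no separation of the groups. The entries bmal2 and bmal2_2 rested on 6 to 49 counts per library and were tested.

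bmal1b differed in the part each of its entries contributed. The entry bmal1b was at 4.50, 4.51 and 6.70 CPM in the control and 3.95, 14.1 and 4.71 in the ZnO libraries, so that ZnO 2 alone lay above the controls. bmal1b_1 was at 2.73, 3.06 and 4.49 CPM in the control and 3.36, 7.40 and 5.92 in the ZnO libraries. The entry bmal1b held 59.5% to 62.3% of the symbol's counts in controls, 54.0% in ZnO 1, 65.6% in ZnO 2 and 44.3% in ZnO 3. Without ZnO 2 its log2 fold change was -0.29, against 0.53 ± 0.49 (SE) with all libraries, and that of bmal1b_1 with all libraries was 0.69 ± 0.32. Reads shared between entries of a symbol may have been divided in ways the table does not show. In contrast, bmal2_1 kept 89.6% to 93.6% of the bmal2 counts in every library.

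In the fit over the whole table, 0 of the 18 entries were called between ZnO and control by the quasi-likelihood test of edgeR (Benjamini-Hochberg adjusted p under 0.05), where 0.428% of 25962 tested entries were called. At an unadjusted edgeR p under 0.05, 5 of the 18 were past the threshold, all of them higher, beside 15.9% of all tested entries in either direction and 7.72% higher. The lowest edgeR adjusted p was that of rorcb, at 0.0598, and it passed without ZnO 1 (0.0286) or with no filter on low counts (0.0245). It did not pass when any other library was left out (0.0921 to 0.173), nor by limma-voom (0.0718). DESeq2 called 3 of 18 higher, namely rorcb (adjusted p = 7.71e-07), rorca (0.0143) and clocka (0.0255), where 1.70% of all entries with an adjusted p were called higher. Groups did not overlap, with ZnO higher, at 3 of 18 entries (rorcb, rorca and clockb), beside 11.3% of all tested entries, and 0 of 18 had ZnO lower, beside 11.2%. In sign, 14 of the 18 were positive, including all 11 bmal, clock and npas2 entries, beside 52.0% of all tested entries, and the median log2 fold change was 0.56 beside 0.01. Because the genes were proposed with this contrast known, these counts describe the list and no more.

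**Figure D2:**
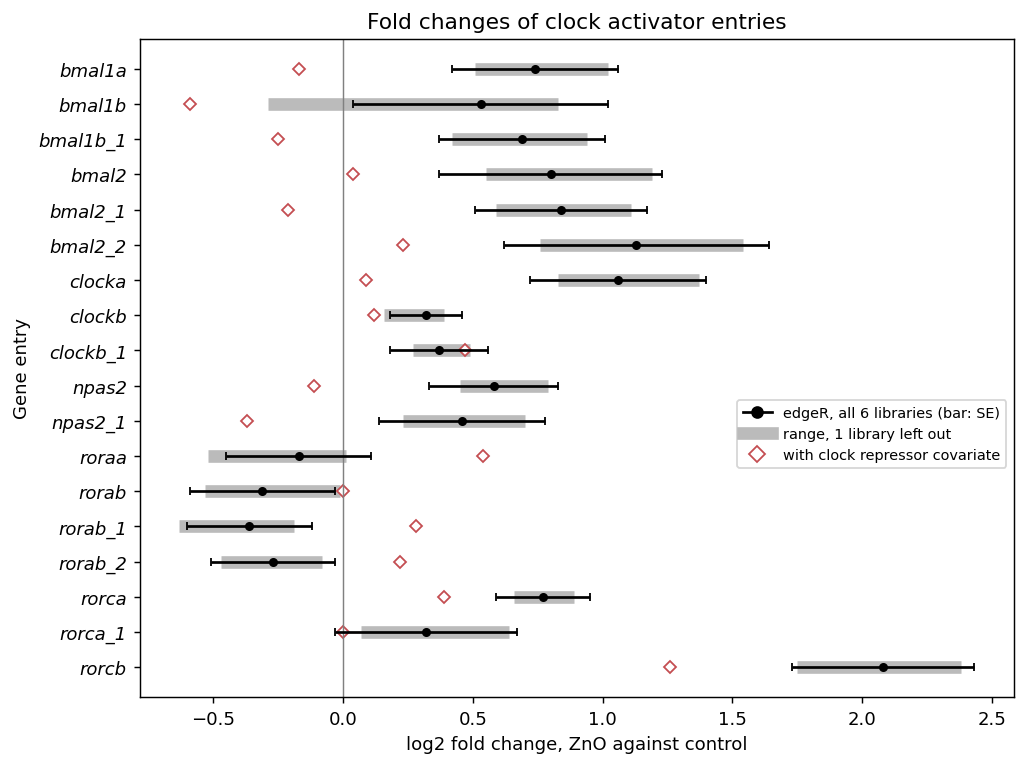
Log2 fold change of each clock activator entry, ZnO against control. Black points and bars are the edgeR estimate and its SE, grey bands the range when 1 library is left out, and open diamonds the estimate with a clock repressor covariate. With the covariate clocka moves from 1.06 to 0.09 and rorcb from 2.08 to 1.26. The covariate moved with the groups, so its part cannot be separated from theirs.

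The spread inside each group was wide for most bmal and clock entries. The SD of log2 CPM among the controls was 0.52 for bmal1a and 0.54 for clocka, above that of 86.8% and 87.5% of all tested entries, whose median SD was 0.21. clockb had an SD of 0.10 among the controls, and rorca of 0.20. Among the ZnO libraries the SD was 0.51 for bmal1a, 0.55 for clocka, 0.24 for clockb and 0.23 for rorca, beside a median of 0.23. The libraries that were high or low were largely shared. Control 3 was the highest control at 9 of 11 bmal, clock and npas2 entries and the lowest at 0, beside 31.2% and 31.7% of all tested entries. ZnO 1 was the lowest ZnO library at 9 of 11, beside 33.7%. Some of these 11 are entries of the same symbol.

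**Figure D3:**
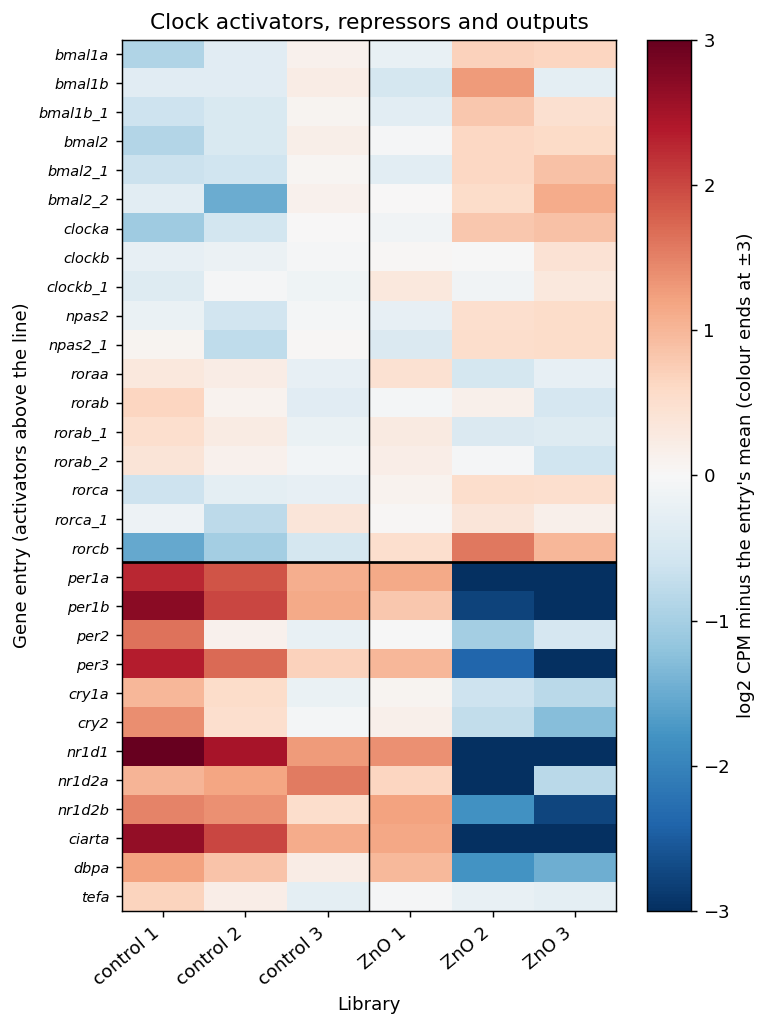
Log2 CPM of the clock activator entries (above the black line) and of 12 clock repressor and output genes (below it) in each library, centred on each entry's mean over the 6 libraries; colours end at ±3. nr1d1, at 60.4 CPM in control 1 and 0.268 in ZnO 2, runs opposite to clocka, at 10.6 and 39.0 CPM. The 12 genes are a selection, all with negative log2 fold changes. In the full lists 7 of 23 repressor and 8 of 18 tested output entries were positive.

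Most repressor genes of the same loop that are named here were arranged the other way round, and some cryptochrome genes were not. per1b, a period gene and E-box target, was at 181, 111 and 61.1 CPM in controls, 48.2 in ZnO 1, and 3.95 and 1.84 in ZnO 2 and ZnO 3. ciarta, the gene of a BMAL-CLOCK inhibitor, was at 60.7, 39.1 and 21.2 CPM in controls, 21.6 in ZnO 1, and 0.766 and 0.869 in the other ZnO libraries. At both genes ZnO 1 was close to control 3, and the other ZnO libraries were lower by an order of magnitude. per1a (38.8 to 17.1 CPM over the controls, 17.6, 0.881 and 0.769 in ZnO 1, 2 and 3) and per3 (92.0 to 29.1, then 35.8, 3.37 and 1.64) had the same layout. nr1d2a departed from it, with 107, 122 and 156 CPM in the controls and 82.9, 4.37 and 30.1 under ZnO, while nr1d2b was at 126, 117 and 64.6 CPM and at 104, 12.6 and 6.58. The period gene per2 lacked the drop by an order of magnitude in ZnO 2 and ZnO 3. It was at 208, 74.0 and 58.0 CPM in the control and 67.0, 33.5 and 47.5 in the ZnO libraries, with overlapping groups. cry1a, a light-induced repressor of the BMAL-CLOCK pair in zebrafish, and the cryptochrome gene cry2 spanned less: cry1a was at 121, 88.9 and 53.6 CPM in the control and 65.1, 39.7 and 34.6 in the ZnO libraries, and cry2 at 37.8, 20.4 and 13.8 and then 15.8, 8.47 and 5.88. The cryptochrome gene cry4 was instead laid out like clocka, at 9.66, 15.9 and 21.0 CPM in the control and 17.6, 35.2 and 43.5 in the ZnO libraries. The entry cry3b, at 15.9, 14.0 and 60.5 CPM and then 36.2, 94.7 and 100, and the 3 cry3a entries also had positive log2 fold changes, with overlapping groups. The groups of nr1d4a and nr1d4b overlapped too. Their log2 fold changes of 0.01 ± 0.23 and 0.34 ± 0.97 (SE) were smaller than their SE.

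Counted over the lists, 16 of 23 repressor entries (per, cry, nr1d, ciart and bhlhe genes, not all of them known to repress) had a negative log2 fold change, with a median of -1.18. edgeR called 0 of them, and 7 lower and 1 higher were at an unadjusted p under 0.05, beside 8.20% lower and 7.72% higher over all tested entries. DESeq2 called 5 lower (cry1b, cry2, cry5, bhlhe41 and bhlhe41_2), where 3.10% of all entries were called lower. It did not call per1a, per1b, per3, nr1d1, nr1d2a, ciarta or cry1a, and nr1d2b had no adjusted p. Groups did not overlap, with ZnO lower, at 7 of the 23, beside 11.2% of all tested entries. Of 18 tested output entries (PAR bZIP, nfil3 and nocturnin genes) 10 were negative with a median of -0.30. edgeR called 0, with 5 at an unadjusted p under 0.05 (15.9% over all entries). DESeq2 called 2 higher (nfil3-5 and nfil3-5_1) and 2 lower (nfil3-6 and nocta), beside 1.70% and 3.10% of all entries. Neither tool called dbpa, a D-box binding factor, or tefa. dbpa was at 11.7, 9.16 and 5.91 CPM in the control and 9.98, 1.42 and 1.77 in the ZnO libraries. tefa was at 166, 121 and 85.9 and then 102, 90.6 and 85.6. Of 20 modifier entries (casein kinase 1, glycogen synthase kinase 3, F-box and related genes) 0 were called by edgeR or DESeq2 and 3 had an unadjusted edgeR p under 0.05, again beside 15.9%, with a median of -0.04.

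A covariate for the state of the repressors was the average log2 level, per library, of nr1d1, ciarta and the genes per1a, per1b and per3. In the main fit the log2 fold changes of these genes, from -2.71 (per1b) to -2.13 (per3), were among the lowest of the repressor list. As the BMAL-CLOCK pair switches on per genes, their average is not independent of the activators. With this covariate, a term added after the data were seen, the log2 fold changes of clocka, bmal1a and bmal2_1 became 0.09, -0.17 and -0.21. That average was 6.23, 5.64 and 4.69 in control 1, 2 and 3, 4.71 in ZnO 1, and 0.38 and 0.09 in ZnO 2 and 3, so it moved with the groups as well as within them. 5 of the 11 bmal, clock and npas2 entries were positive in that fit. rorcb and rorca had values of 1.26 and 0.39. In that fit edgeR called 0 entries higher and 0 lower among all 25962 tested. At an unadjusted edgeR p under 0.05 there were 829 higher and 892 lower, beside 2003 and 2129 without the covariate. Fewer entries were thus past this threshold over the whole set, and not only among the clock activators. Of the 18 activator entries 0 were called, with adjusted p of 0.618 for rorcb, 0.841 for rorca and 0.981 for clocka. As the covariate moved with the groups, the fit cannot separate its part from that of the group at any of these genes. The alpha type entries became positive or 0.00, at 0.54 for roraa and 0.28 for rorab_1. The part of clock phase in the differences between the groups was not tested.

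To find entries with a like layout, the root mean square difference of centred log2 CPM over the 6 libraries was taken between each family's entry of highest CPM and every entry of another symbol with a mean of at least 1 CPM. For bmal1a the nearest named entries of 21985 were hprt1l, ftr94 (a finTRIM gene) and igfbp2a_1 (an insulin-like growth factor binding protein), at 0.12, 0.15 and 0.15. Some other clock activators were close behind: bmal1b_1 ranked 5 and clocka 8, both at 0.16, and bmal2_1 ranked 16 at 0.19. rorca ranked 90 (0.25) and npas2 352 (0.32). Further down were clockb at rank 1874, rorca_1 at 2411, npas2_1 at 2536 and clockb_1 at 4266. The entry bmal1b ranked 5656 (0.52) and rorcb 15158 (0.67). The roraa and rorab entries ranked from 19394 (rorab_2) to 20210 (rorab_1). This distance counts the size of a change as well as its layout, so an entry of wider or narrower range ranks lower. cry4, another cryptochrome gene, ranked 23 at 0.20. Nearest to the mirror image of bmal1a were vcana, which encodes the matrix proteoglycan versican, at 0.10, cry1a at 0.13, and frem3_1, of the FRAS and FREM basement membrane family, at 0.14. These distances include the difference between the groups and rest on 6 libraries.

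clockb and rorab_1 had other neighbours. clockb, with its narrow range, lay nearest to glrx2_1 (a glutaredoxin), arfip2b_1 and sgpp2 at 0.05, 0.05 and 0.06, and its mirror image to psmb5_1 (a proteasome subunit), slc38a7 and dap_2 at 0.03, 0.05 and 0.05. The nearest activator of another symbol was rorca, at rank 10062 of 21984. rorab_1 lay nearest to crybb3 (a crystallin), frem2a and gaa (lysosomal acid alpha-glucosidase) at 0.08, 0.10 and 0.11, with roraa at rank 15 and 0.13, and its mirror image to adra2b, sspn_2 and cd4-1_1 at 0.06, 0.07 and 0.08. Among clock outputs tefa_1 ranked 22 of 21983 in likeness to rorab_1, at 0.14.

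**Figure D4:**
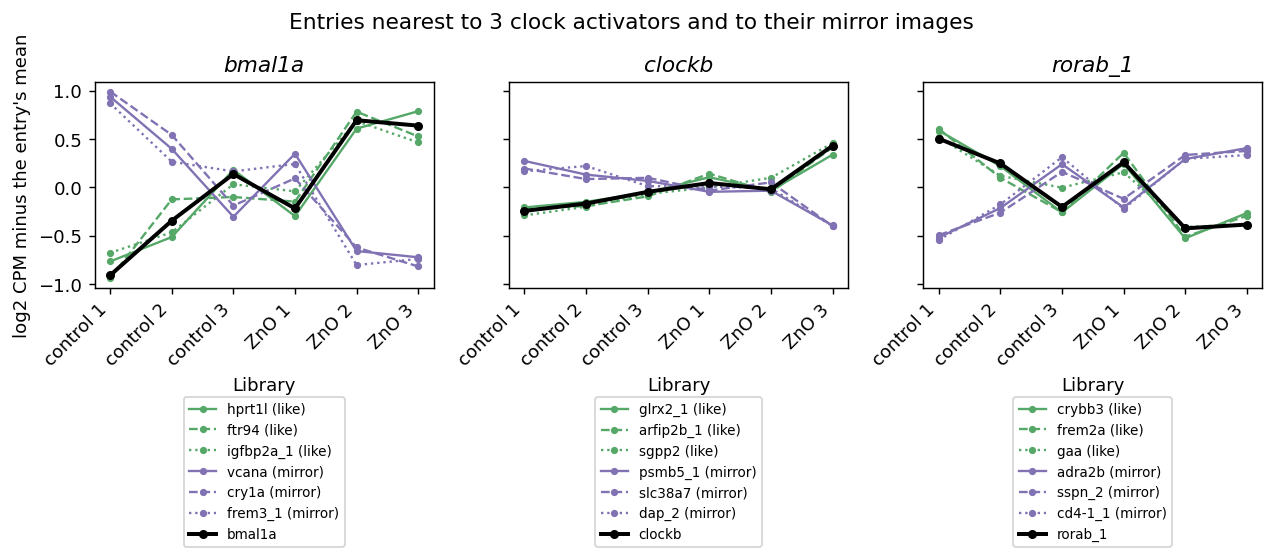
Centred log2 CPM over the 6 libraries of bmal1a, clockb and rorab_1 (black), of the 3 named entries nearest to each (green) and of the 3 nearest to its mirror image (purple). bmal1a and the mirror entries vcana and cry1a cross between control 2 and control 3, between control 3 and ZnO 1, and between ZnO 1 and ZnO 2. They lie furthest apart in control 1, ZnO 2 and ZnO 3.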

How the data were processed

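The authors deposited 1 table of raw read counts for gene entries, without normalization. The submitters' processing notes name GRCz11, HTSeq, BWA, cutadapt and DESeq2. Versions, roles, settings and any use of strand in counting are not given in the sources used for this text. Columns were matched to samples by library name, and none was unmatched.

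A filterByExpr filter (minimum count 10) kept 25962 entries and all 18 clock activator entries. After TMM scaling, the robust quasi-likelihood test of edgeR, with group as its only term, was run with Benjamini-Hochberg adjustment over all tested entries at a threshold of 0.05. SE is the log2 fold change divided by the root of its F. DESeq2 adjusted p-values that were not given stayed missing. Log2 CPM used a prior count of 2. The scripts were tested on simulated data. Fits ran in R 4.3.3 with DESeq2 1.42.0, limma 3.58.1 and edgeR 4.0.16, and summaries in Python 3.11.15 with numpy 2.4.6, matplotlib 3.10.9 and pandas 2.3.3.

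The genes, the lists and the naming rule were chosen with earlier results of these data known. The rule takes all clock activator entries, 11 clock genes and the 3 nearest entries in likeness and mirror likeness. per2, cry4, the cry3a, cry3b, nr1d4a and nr1d4b entries, the activators in the likeness ranks and tefa_1 were added after their values were seen. So were the other repressor and output entries called by DESeq2, and the single blastema markers named. Entries with clone or locus names were skipped in naming. The filter on 1 CPM for likeness used the mean over all libraries. Levels of different genes are not compared, since transcript lengths were not used here, and no protein or promoter sequences were used.

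No duplicate library was found within a group, as counts of each pair in the same group differed by more than sampling noise. Pairs across the groups were not checked for this. Alternatives were DESeq2, limma-voom, other scalings and filters, summed entries of a symbol, a replicate block, leaving out each library in turn, and the clock repressor covariate.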

Additional observations from a re-analysis of the deposited data

How the results depend on the processing

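Of the 18 entries, edgeR called 0, limma-voom 0 (5 at an unadjusted p under 0.05 in each) and DESeq2 3. With no filter on low counts edgeR called 1, and with 1 library left out 0 to 1. Over all entries 25 were higher and 86 lower, against 425 and 774 by DESeq2, 8 and 47 by limma-voom, 122 and 283 with no filter, 14 higher with the stricter filter, 0 to 87 higher and 12 to 282 lower with 1 library left out, and 0 and 0 with the clock repressor covariate (829 and 892 at an unadjusted edgeR p under 0.05). With the replicate block 3 were higher and 29 lower, and 0 of the 18. Same-numbered libraries had correlations of their deviations of 0.014, -0.049 and 0.078, so the numbers were not taken as pairs. With the covariate the sign reversed for bmal1a (-0.17), bmal1b (-0.59), bmal1b_1 (-0.25), bmal2_1 (-0.21), npas2 (-0.11), npas2_1 (-0.37), roraa (0.54), rorab (0.00), rorab_1 (0.28) and rorab_2 (0.22), and without ZnO 2 for bmal1b (-0.29) and roraa (0.01), whose values with 1 library left out ran from -0.29 to 0.83 and from -0.52 to 0.01. The cause was not tested. Of 278 fold changes under alternatives, 261 kept their sign and side of the threshold. Scalings moved no sign, and all 6 leave-one-out fits kept clocka, bmal1a and rorcb positive. The stricter filter left 16 entries. With a prior count of 0.5 the distances of the 18 nearest entries named moved by at most 0.01 and those of the activators by at most 0.02. Depth limits bmal2, bmal2_2 and rorca_1 most.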
